A study of Homo sapiens with 12 samples.

Results

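The 10 genes of the Notch pathway described here were followed across the 6 sorted populations of the series: the receptors NOTCH1, NOTCH2 and NOTCH3, the ligands JAG1, JAG2, DLL1 and DLL4, and the target genes HES1, HEY1 and HES4. They were chosen by name for their place in the pathway, and these 10 are taken from 34595 genes with a value. The cells were 3 established gastric cancer cell lines, KATO-III, SNU-216 and SNU-601, each sorted by flow cytometry on CD133, the membrane glycoprotein encoded by PROM1. The brightest 10% of cells by CD133 fluorescence gave the CD133+ population and the dimmest 6% gave the CD133- population, with no other treatment, and RNA of each population was hybridized to 2 Illumina HT-12 v3 BeadChip arrays. There were thus 12 arrays, 6 per fraction and 4 per line. The labels do not say whether the 2 arrays of a population came from separate sorts or cultures. Except in the comparison over all lines, every p-value thus measures only the spread between arrays, which may be technical. In that comparison the spread also holds differences among the lines in the change between fractions. The number of arrays limits the precision.

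Notch receptors are membrane proteins that are switched on by Jagged and Delta-like ligands on a neighbouring cell. Binding lets ADAM proteases and then γ-secretase cut the receptor, and the freed intracellular domain enters the nucleus, joins the DNA-binding protein RBPJ and a Mastermind coactivator, and turns on HES and HEY genes, which encode transcriptional repressors. In the gastrointestinal epithelium the pathway is known for keeping stem and progenitor cells undifferentiated.

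The members did not follow the CD133 fraction in one way. The 5 of 9 tested members called in KATO-III were all lower in CD133+ cells. Of the 5 called in SNU-216, 4 were lower, and of the 5 in SNU-601, 4 were higher. Among all tested genes, 18.7% were called higher and 20.6% lower in KATO-III, 14.6% and 14.0% in SNU-216, and 8.59% and 7.78% in SNU-601. DLL1 was tested only through its KATO-III CD133- arrays, and fewer members were called in KATO-III and SNU-601 in some other fits. JAG1 ran opposite to HES1 in SNU-216 and in SNU-601: the ligand was 1.91-fold higher and the target 2.19-fold lower in CD133+ cells of SNU-216, and the ligand was 1.25-fold lower and the target 1.32-fold higher in those of SNU-601. Across lines they did not run opposite: both were lowest in SNU-216, and over the 6 population means of log2 intensity, of which each line gives 2, Pearson's r was 0.861, given as a description. Variation between the lines was larger than that between the fractions for each tested member but DLL1, which was above the floor in a single population. That split was not made for all genes, and 72.3% of all tested genes were called between lines. HES4, at 8325 or more in SNU-216 and SNU-601, was not above background in KATO-III.

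Intensities were on a linear scale with background subtracted, and values under a floor of 32.7 were set to it before log2 was taken. A gene was tested with limma where 2 or more arrays exceeded the floor, which held for 20147 genes and for 9 members. DLL4 was above the floor on 1 array and was not tested, DLL1 was above it on 2, HEY1 on 5, HES4 on 8, NOTCH2 on 11 and the other 5 members on 12. A gene was called where its Benjamini-Hochberg adjusted p over all tested genes was under 0.05. Log2 changes are CD133+ minus CD133-, with the standard error (SE) of limma. A population with both arrays at the floor has no spread, so the SEs and p-values of such genes also rest on the floor. Intensities of different genes come from different probes and were not set against each other. Between 16320 and 16474 genes were above the floor on an array. PROM1 itself was higher in CD133+ cells by 1.10 on the log2 scale in KATO-III, 2.02 in SNU-216 and 1.86 in SNU-601.

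**Figure D1:**
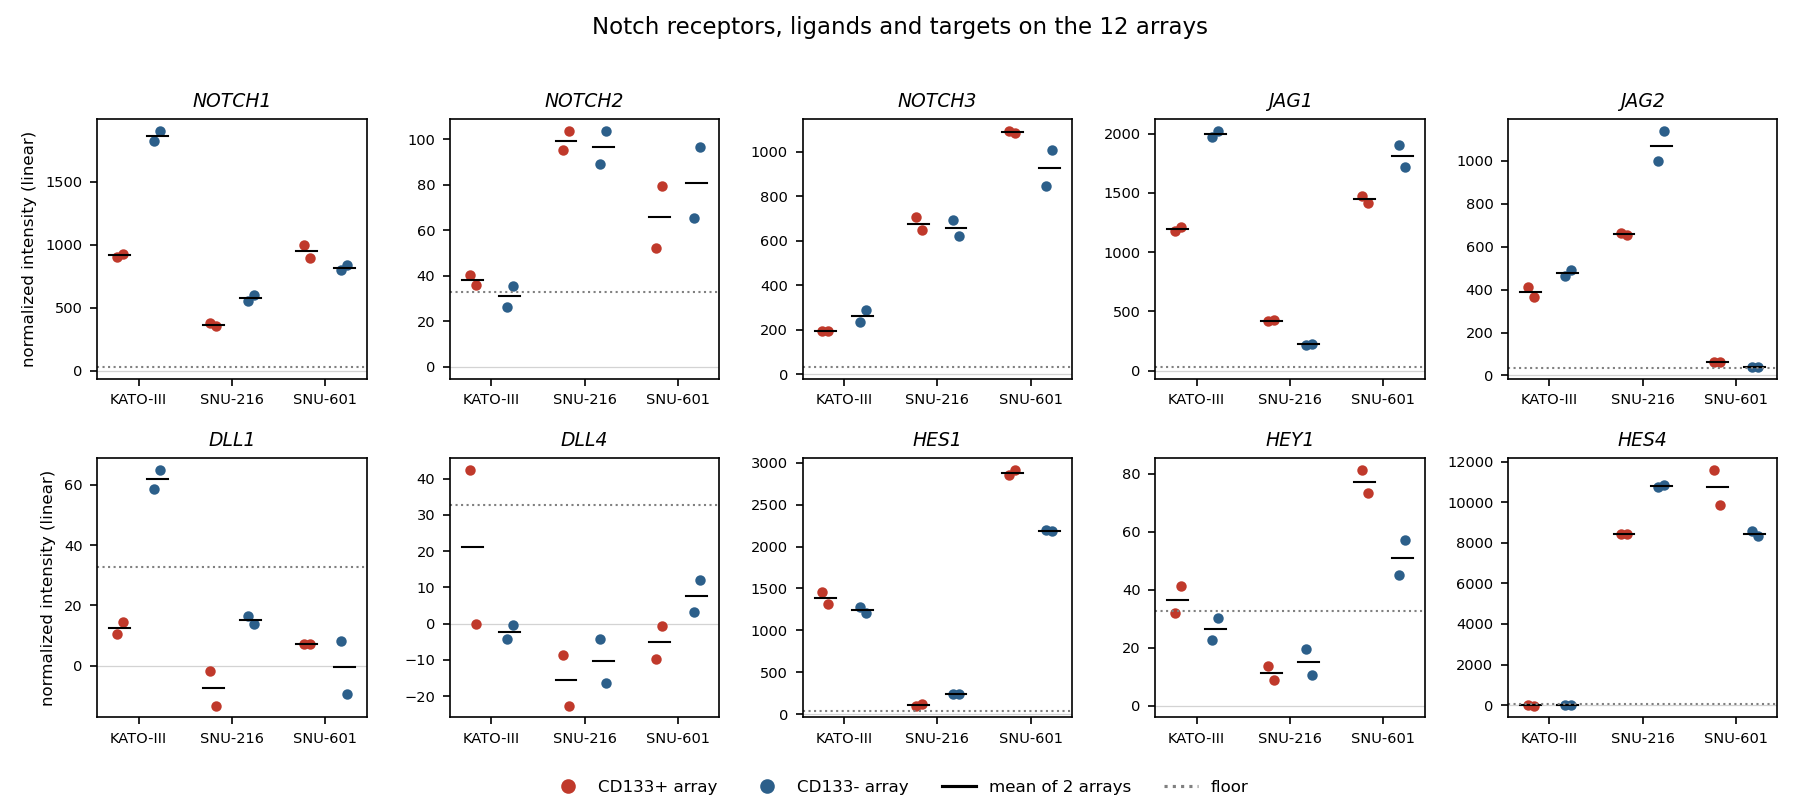
Normalized linear intensity (y axis) of the 10 Notch members on the 12 arrays, by cell line (x axis). Each point is 1 array, red for CD133+ and blue for CD133-, the bar is the mean of the 2 arrays of a population, and the dotted line is the floor of 32.7. JAG1 lies higher in CD133- cells of KATO-III and SNU-601 and higher in CD133+ cells of SNU-216, and HES4 is at background in KATO-III.

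NOTCH1 (chr9:136494433-136546048 in GRCh38.p14), a receptor that most cell types carry, had the largest change of the 3 receptors. In KATO-III it was at 905 and 928 in CD133+ cells and at 1821 and 1901 in CD133- cells. In SNU-216 it was at 383 and 353 in CD133+ cells and at 552 and 605 in CD133- cells. In SNU-601 it was at 995 and 899 in CD133+ cells and at 798 and 838 in CD133- cells. The fractions did not overlap in any line, and the CD133- arrays were the higher ones in KATO-III and SNU-216 and the lower ones in SNU-601. By limma, NOTCH1 fell by 1.02 (log2, SE 0.0734, adjusted p = 1.2e-05), or 2.03-fold, in CD133+ cells of KATO-III and by 0.65 (SE 0.0734, adjusted p = 0.000268), or 1.57-fold, in those of SNU-216. In SNU-601 the log2 change was 0.21 and did not pass the test (SE 0.0734, adjusted p = 0.0907). From high to low, the order was KATO-III CD133-, SNU-601 CD133+, KATO-III CD133+, SNU-601 CD133-, SNU-216 CD133- and SNU-216 CD133+. The step from SNU-601 CD133+ to KATO-III CD133+ and the next one down were not called (adjusted p = 0.686 and 0.10).

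NOTCH2 (chr1:119911553-120069662), a receptor closely related to NOTCH1, was dim throughout. Its arrays were at 40.4 and 36.2 in CD133+ and 26.4 and 35.7 in CD133- cells of KATO-III, at 95.1 and 103.6 against 89.2 and 103.6 in SNU-216, and at 52.4 and 79.7 against 65.5 and 96.4 in SNU-601. The fractions overlapped in SNU-216 and SNU-601, and in no line was NOTCH2 called between them. The 95% interval of its log2 change ran from -0.38 to 0.70 in KATO-III, from -0.49 to 0.58 in SNU-216 and from -0.84 to 0.24 in SNU-601, so a change of moderate size could not be detected with these arrays. Along its order, the only step called was the one between SNU-601 CD133+ and KATO-III CD133+ (adjusted p = 0.0257).

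NOTCH3 (chr19:15159038-15200995), a receptor best known from vascular smooth muscle, rose from KATO-III through SNU-216 to SNU-601. KATO-III arrays were at 193.4 and 192.8 in CD133+ and at 236 and 289 in CD133- cells, SNU-216 arrays at 706 and 647 against 692 and 619.9, and SNU-601 arrays at 1093 and 1083 against 845 and 1008. No array of one line overlapped with those of another, while the fractions overlapped in SNU-216 and did not in the other two lines. NOTCH3 fell by 0.44 (log2, SE 0.116, adjusted p = 0.0155) in CD133+ cells of KATO-III, a call that was lost without CD133+ replicate 1 (adjusted p = 0.0630), CD133+ replicate 2 (adjusted p = 0.0635) or CD133- replicate 2 (adjusted p = 0.108) of that line. Its log2 change was 0.05 in SNU-216 and 0.24 in SNU-601, and neither was called (adjusted p = 0.895 and 0.223).

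JAG1 (chr20:10637684-10673999), a ligand of the Jagged type, changed in every line and not always the same way. KATO-III arrays were at 1175 and 1208 in CD133+ and 1974 and 2022 in CD133- cells. In SNU-216 it was at 416 and 426 in CD133+ and 215 and 226.5 in CD133- cells. In SNU-601 it was at 1477 and 1413 in CD133+ and 1902 and 1721 in CD133- cells. CD133- arrays were above CD133+ arrays in KATO-III and SNU-601, the reverse held in SNU-216, and the fractions overlapped nowhere. By limma, JAG1 fell by 0.75 (log2, SE 0.0600, adjusted p = 2.2e-05) in CD133+ cells of KATO-III, rose by 0.93 (adjusted p = 1.4e-05) in those of SNU-216 and fell by 0.32 (adjusted p = 0.00727) in those of SNU-601. All 3 were called in each of the 21 fits run with other settings or with an array left out. In the order of the populations, KATO-III CD133- and SNU-601 CD133- at the top were not told apart (adjusted p = 0.0813), and every further step down was called.

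JAG2 (chr14:105140995-105168776), the other Jagged ligand, was highest where JAG1 was lowest, in SNU-216. KATO-III arrays were at 410.2 and 365 in CD133+ and 464 and 491 in CD133- cells, and SNU-216 arrays at 665 and 654 in CD133+ and 999 and 1139 in CD133- cells. In SNU-601 it was near the floor, at 62.0 and 63.1 in CD133+ and at 41.0 and 40.5 in CD133- cells. The fractions did not overlap in any line. JAG2 fell by 0.30 (log2, SE 0.0953, adjusted p = 0.0331) in CD133+ cells of KATO-III and by 0.69 (adjusted p = 0.000757), or 1.62-fold, in those of SNU-216, and rose by 0.62 (adjusted p = 0.00319), or 1.54-fold, in those of SNU-601. The KATO-III call was lost when arrays were centred on their medians (adjusted p = 0.0598) and without CD133+ replicate 2 (0.187), CD133- replicate 1 (0.0673) or CD133- replicate 2 (0.149) of the line. The SNU-601 call was lost with an offset of 100 in place of the floor (log2 change 0.21, adjusted p = 0.116), and with a floor of 100 all its SNU-601 values are at the floor. Each step in the order SNU-216 CD133-, SNU-216 CD133+, KATO-III CD133-, KATO-III CD133+, SNU-601 CD133+, SNU-601 CD133- was called.

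DLL1 (chr6:170282206-170291078), a Delta-like ligand, was above the floor in a single population. CD133- cells of KATO-III were at 58.8 and 65.0, and CD133+ cells of that line at 10.4 and 14.4. The other 8 arrays lay between -13.2 and 16.4. It was at least 1.89-fold higher in CD133- than in CD133+ cells of KATO-III (limma adjusted p = 9.8e-05). That size rests on the floor: the log2 change was -0.92 as reported and lay between -1.95 and -0.53 over the other settings. DLL1 passed the filter only through the 2 CD133- arrays of KATO-III. Its other arrays were all set to the floor and had no spread, so its p-values rest on the floor too. The call was kept in the 17 fits that tested the gene, none of which left out either CD133- array of KATO-III. With an offset of 100 in place of the floor, limma's adjusted p was 0.0041. DLL4 (chr15:40929340-40939073), the Delta-like ligand best known from endothelium, was at 42.4 on 1 of the 2 KATO-III CD133+ arrays and at -0.20 on the other, and lay between -22.6 and 12.1 on the other 10 arrays.

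HES1 (chr3:194136148-194138732) encodes a basic helix-loop-helix repressor and is the target most often read as a sign of Notch activity. In SNU-601 it was at 2851 and 2915 in CD133+ and at 2195 and 2186 in CD133- cells. KATO-III arrays were at 1453 and 1310.3 in CD133+ and at 1276 and 1203 in CD133- cells. SNU-216 arrays were at 101.4 and 115.6 in CD133+ and at 236.8 and 236.7 in CD133- cells. No array of one line overlapped with those of another, and within each line the fractions did not overlap either. HES1 fell by 1.13 (log2, SE 0.0745, adjusted p = 1.6e-05) in CD133+ cells of SNU-216, the largest change within a line among members above the floor on both sides, and rose by 0.40 (adjusted p = 0.00792) in those of SNU-601, both in each of 21 fits. In KATO-III the log2 change was 0.16 and was not called (adjusted p = 0.140). In the order of populations only the step from KATO-III CD133+ to KATO-III CD133- was not called (adjusted p = 0.123).

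HES4 (chr1:998964-1000097), a relative of HES1, was the member with the widest range. KATO-III arrays were at -9.46 and -25.9 in CD133+ and at 7.58 and 4.89 in CD133- cells, all below the floor. SNU-216 arrays were at 8445 and 8421 in CD133+ and at 10765 and 10839 in CD133- cells, and SNU-601 arrays at 11597 and 9870.1 in CD133+ and at 8577 and 8325 in CD133- cells. The fractions did not overlap in SNU-216 or SNU-601, and the higher fraction was CD133- in the former and CD133+ in the latter. HES4 fell by 0.36 (log2, SE 0.0671, adjusted p = 0.00394) in CD133+ cells of SNU-216 and rose by 0.34 (adjusted p = 0.00978) in those of SNU-601. The KATO-III arrays, all set to the floor, add no spread to that SE, while the log2 SD of the SNU-601 CD133+ arrays was 0.164. The SNU-601 call was lost without CD133- replicate 2 of that line (log2 change 0.32, adjusted p = 0.0591). With an offset of 100 in place of the floor, HES4 was also called in KATO-III (log2 change -0.38, adjusted p = 0.00344), from values that are all below the floor.

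HEY1, the repressor of the HEY family, was dim and above the floor on both arrays of a population only in SNU-601, at 81.4 and 73.3 in CD133+ and at 45.0 and 57.1 in CD133- cells. KATO-III arrays were at 32.0 and 41.1 in CD133+ and at 22.6 and 30.1 in CD133- cells, and SNU-216 arrays between 8.90 and 19.5. HEY1 was 1.52-fold higher in CD133+ than in CD133- cells of SNU-601 (log2 change 0.61, SE 0.153, limma adjusted p = 0.0277). It was called in 13 of 19 fits, and not with a floor of 16 (adjusted p = 0.151), an offset of 100 (0.200), no filter (0.0520), or without CD133+ replicate 1 (0.129), CD133+ replicate 2 (0.0620) or CD133- replicate 1 (0.145) of SNU-601.

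The sequences just upstream of HES1 and HES4 are shown because these target genes moved the same way in SNU-216 and in SNU-601, and because RBPJ binds DNA at a core written TGGGAA. Each is the run of 250 bases before the RefSeq start of the gene in GRCh38.p14, 5′ to 3′ on the strand of the gene, with matches to TGGGAA in capitals. HES1 is on the plus strand (chr3:194135898-194136147) and HES4 on the minus strand (chr1:1000098-1000347).
HES1: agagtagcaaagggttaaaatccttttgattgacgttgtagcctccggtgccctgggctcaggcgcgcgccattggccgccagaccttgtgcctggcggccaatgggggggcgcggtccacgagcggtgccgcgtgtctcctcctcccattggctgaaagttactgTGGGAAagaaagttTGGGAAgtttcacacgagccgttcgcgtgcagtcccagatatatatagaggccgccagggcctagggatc
HES4: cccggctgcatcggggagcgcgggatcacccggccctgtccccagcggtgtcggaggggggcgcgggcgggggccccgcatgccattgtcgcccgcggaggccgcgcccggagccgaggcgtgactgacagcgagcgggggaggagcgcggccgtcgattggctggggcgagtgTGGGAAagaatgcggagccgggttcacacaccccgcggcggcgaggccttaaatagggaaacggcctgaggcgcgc
The HES1 window holds the letters 2 times, with first bases 84 and 70 upstream of the start, and the HES4 window holds them 1 time, 76 upstream. The longest run the 2 windows share is TGTGGGAAAGAA, 12 bases that contain a match in both, and it occurs on either strand in 6 of 35116 windows of the same length. The run was picked by comparing these 2 windows, which are among the 6, so the count is a description and no test. The windows of NOTCH1, NOTCH2, NOTCH3, JAG1, JAG2 and DLL4 hold no TGGGAA on either strand (the other strand reads TTCCCA), and 20.8% of all windows hold at least 1 and 2.9% at least 2. JAG2, whose window holds none, moved the same way as HES1 and HES4 in SNU-216 and in SNU-601. CACGTG, an E-box that basic helix-loop-helix proteins bind, which reads the same on both strands, was in none of the 8 windows and in 6.34% of all. A match is only a run of letters, and binding was not measured here.

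The first comparison was CD133+ against CD133- cells over all lines. Fitted with a term for line, limma called 0 of the 9 tested members, against 4.73% of all tested genes. The spread in this fit holds the differences among lines in the change, and the SE of JAG1 was 0.219 here and 0.0600 within a line. NOTCH1 had a log2 change of -0.49 (SE 0.166, limma unadjusted p = 0.0128, adjusted p = 0.108). It was lower in CD133+ cells of KATO-III and SNU-216 and not of SNU-601. The other 8 log2 changes lay between -0.31 (DLL1) and 0.26 (HEY1), with adjusted p of 0.207 or more. The median log2 change was -0.05 over the members and -0.01 over all tested genes. None of the alternative settings or left-out arrays gave a called member. The signal-to-noise ratio, which is the difference of the means of the 6 CD133+ and 6 CD133- arrays over the sum of their SDs, lay between -0.541 (DLL1) and 0.230 (HEY1) on linear intensities, and no member passed 1 or -1.

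Within lines the picture differed. In KATO-III, 5 of 9 members were called, 0 higher in CD133+ cells (18.7% of all tested genes) and 5 lower (20.6%). These were NOTCH1, NOTCH3, JAG1, JAG2 and DLL1, the last tested only through its CD133- arrays. That count was 3 without CD133+ replicate 2 or CD133- replicate 1 of the line and 2 without CD133- replicate 2. In SNU-216, 1 was higher (14.6%), JAG1, and 4 were lower (14.0%), NOTCH1, JAG2, HES1 and HES4. In SNU-601, 4 were higher (8.59%), JAG2, HES1, HEY1 and HES4, and 1 was lower (7.78%), JAG1, and these 5 became 3 with a floor of 100, with an offset of 100 or with genes above the floor on all arrays. The members' median log2 change was -0.30 in KATO-III, 0 in SNU-216 and 0.24 in SNU-601, and that of all tested genes was 0 in each line. The 0 of SNU-216 is the value of DLL1 and HEY1, whose arrays there were all set to the floor. Genes at the floor throughout a line enter these medians, and the absolute ones, with a change of 0. The median absolute log2 change of the members was 0.302, 0.357 and 0.325 in the 3 lines, against 0.293, 0.226 and 0.175 over all tested genes. In bulk RNA of a population, fewer cells that express a gene and less RNA of it per cell cannot be told apart.

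**Figure D2:**
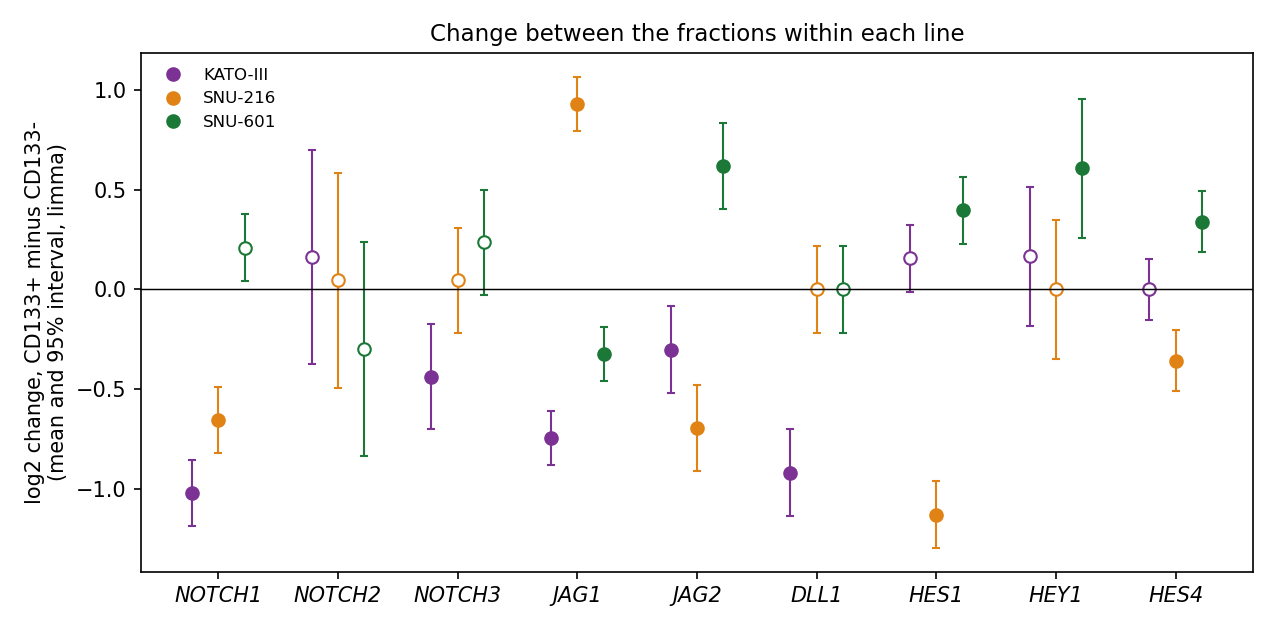
Log2 change between CD133+ and CD133- cells (y axis) of the 9 tested members (x axis) in KATO-III (purple), SNU-216 (orange) and SNU-601 (green). Points are the means of 2 arrays against 2 with the 95% interval of limma, and filled points passed an adjusted p of 0.05. JAG1 stands above 0 in SNU-216 and below it in the other lines, and JAG2, HES1 and HES4 stand below 0 in SNU-216 and above it in SNU-601.

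The difference between lines was tested directly. The interaction of line and fraction was called by limma for 7 of 9 members, against 44.4% of all tested genes, and the exceptions were NOTCH2 (adjusted p = 0.511) and HEY1 (adjusted p = 0.101). JAG1 had the smallest adjusted p (7.3e-06), and NOTCH3, the largest of the 7 (0.0208), was no longer called without the filter on dim genes (0.0676). DLL1, also among the 7, was tested only through the population where it was above the floor. JAG1, JAG2, HES1 and HES4, 4 of 9 members, were called higher in CD133+ cells of one line and lower in those of another, against 10.9% of all tested genes. The change in SNU-601 minus that in SNU-216, a contrast added after these values were seen, was 1.53 (SE 0.105, limma adjusted p = 3.6e-05) for HES1, 1.31 for JAG2, 0.86 for NOTCH1, 0.70 for HES4 and -1.26 (SE 0.0848, adjusted p = 3.3e-05) for JAG1 on the log2 scale. These 5 of 9 were called, against 28.2% of all tested genes, and HEY1 (0.61, adjusted p = 0.0685), NOTCH2, NOTCH3 and DLL1 were not. In this contrast NOTCH1, JAG2, HES1 and HES4 shared a direction, and JAG1 had the other.

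Levels of the members separated the lines. All 9 tested members were called between lines by limma, against 72.3% of all tested genes. DLL1, among the 9, passed the filter only through the KATO-III CD133- arrays, so its call rests on the floor. Pairs of populations were called in 48.3% of all gene and pair combinations. With both fractions averaged, JAG2 was 16.6-fold higher in SNU-216 than in SNU-601 and HES1 15.7-fold higher in SNU-601 than in SNU-216, the widest measured spreads. JAG1 was 5.30-fold and NOTCH3 4.46-fold higher in SNU-601 than in SNU-216 and KATO-III, respectively, NOTCH1 2.83-fold higher in KATO-III than in SNU-216, and NOTCH2 2.70-fold higher in SNU-216 than in KATO-III. HES4 was at least 292-fold higher in SNU-216 than in KATO-III, and SNU-216 and SNU-601 were not told apart (log2 difference 0.01, adjusted p = 0.965). HEY1 was at least 1.91-fold higher in SNU-601 than in SNU-216. With a floor of 100, NOTCH2 was no longer called between lines (adjusted p = 0.656).

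**Figure D3:**
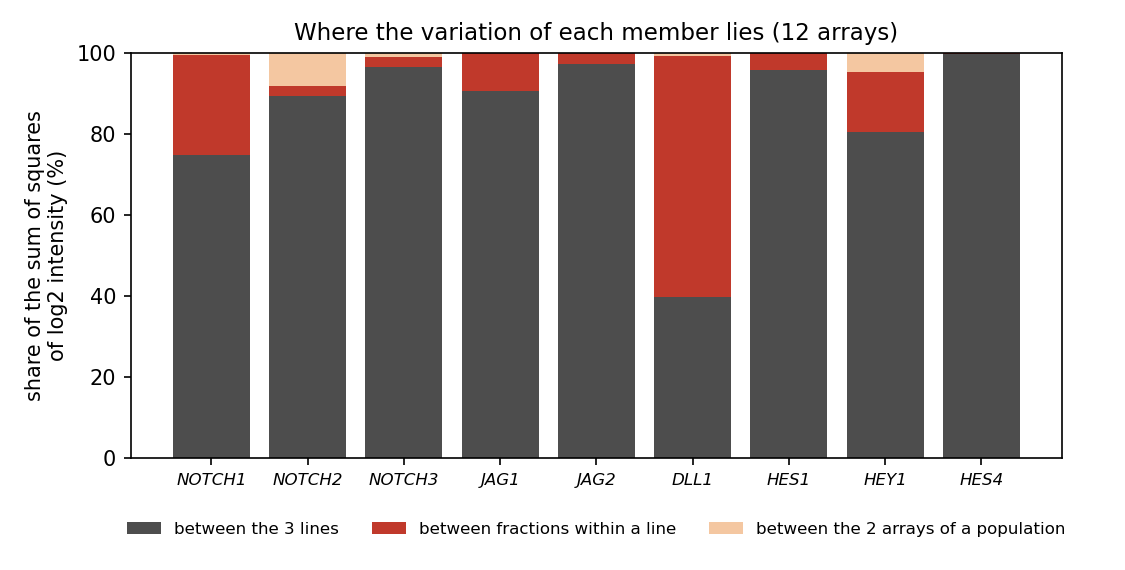
Share of the sum of squares of log2 intensity over 12 arrays (y axis, %) that lies between the 3 lines (grey), between the fractions within a line (red) and between the 2 arrays of a population (light orange), for the 9 tested members (x axis). The share between lines runs from 39.7% for DLL1 to 99.8% for HES4.

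Of the variation of HES4 over the 12 arrays, 99.8% lay between lines and 0.136% between fractions within lines. The share between lines was 97.3% for JAG2, 96.6% for NOTCH3, 95.9% for HES1, 90.7% for JAG1, 89.4% for NOTCH2 and 80.5% for HEY1. NOTCH1 had 24.7% between fractions within lines, and DLL1, with 59.6%, was the member for which the fractions took more than the lines. The split of DLL1 follows from the floor, to which all its arrays were set except those of KATO-III CD133- cells. These shares are a description, were not tested and were not taken over all genes.

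The wider pathway was read from 64 other genes: 52 were tested, and the rows of 41 were above the floor on every array and those of 12 on none. KDM5A is among the 12 by the row of its current symbol, while its row under an older symbol was above the floor on all 12 arrays and was not used. Over the lines limma called 1 of the 52, against 4.73% of all tested genes: MAML2, a Mastermind coactivator, which rose by 0.51 in CD133+ cells (log2, adjusted p = 0.0438). That count was 0 with a floor of 16, without the filter on dim genes and with the 2 arrays of a population averaged first. In KATO-III 23 of 52 were called, 10 higher and 13 lower in CD133+ cells, where 18.7% and 20.6% of all tested genes were called. In SNU-216 there were 26, 12 higher and 14 lower, against 14.6% and 14.0% of all tested genes. In SNU-601 there were 17, 10 higher and 7 lower, against 8.59% and 7.78%. The SNU-601 count fell to 9 without either CD133+ array or without CD133- replicate 2, and to 11 without CD133- replicate 1. The median log2 change of the 52 was -0.01 in KATO-III, -0.05 in SNU-216 and -0.03 in SNU-601. Of the 52, the interaction was called for 31 (44.4% of all tested genes) and the difference between lines for 47 (72.3%), while 13 had calls of opposite direction in a pair of lines (10.9%).

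Of the proteases that cut the receptor, 3 of 9 were lower in CD133+ cells of KATO-III (20.6% of all tested genes), 3 of 9 higher in those of SNU-216 (14.6%) and 1 of 9 higher in those of SNU-601 (8.59%). The KATO-III genes were all γ-secretase subunits: NCSTN (nicastrin), at 2927 and 2841 in CD133+ and 5518 and 5142 in CD133- cells, fell by 0.89 (log2, adjusted p = 1.7e-06), PSEN2, a presenilin, by 0.40, and PSENEN by 0.22. In SNU-216 the subunit APH1B rose by 0.66 and the ADAM proteases ADAM10 and ADAM17 by 0.49 and 0.39, and in SNU-601 APH1B rose by 0.95 (adjusted p = 0.00691).

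Glycosyltransferases, which add sugars to the receptor and tune its response to ligands, were tested for 5 genes, and the interaction was called for all 5, against 44.4% of all tested genes. The fringe enzyme LFNG was at 1537 and 1551 in CD133+ and 2475 and 2450 in CD133- cells of KATO-III, where it fell by 0.67 (log2, adjusted p = 5.6e-06), and it fell by 0.75 (adjusted p = 7.6e-06) in SNU-216. The fringe enzyme MFNG fell by 1.08 (adjusted p = 8.9e-05) in SNU-216, from 372 and 468 in CD133- to 195.7 and 199.9 in CD133+ cells. POFUT1, the O-fucosyltransferase, fell by 0.48 in KATO-III. KTELC1, the name on the array for the O-glucosyltransferase POGLUT1, rose by 0.52 in SNU-216 and fell by 0.27 in SNU-601.

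Among 10 tested genes of ligand and receptor trafficking and degradation, 2 were higher and 1 was lower in CD133+ cells of KATO-III (18.7% and 20.6% of all tested genes), 2 higher and 2 lower in SNU-216 (14.6% and 14.0%), and 3 higher and 1 lower in SNU-601 (8.59% and 7.78%). NRARP, a feedback inhibitor of the pathway and itself a Notch target, was in KATO-III at 464 and 584 in CD133+ and 262 and 296 in CD133- cells. Its log2 rise was 0.90 there (adjusted p = 0.000801) and 0.52 in SNU-601 (adjusted p = 0.0331), and it was below the floor on all SNU-216 arrays. DTX2, a Deltex ubiquitin ligase, fell by 0.63 in KATO-III and by 0.96 in SNU-216 and rose by 0.35 in SNU-601. MIB2, a Mind bomb ubiquitin ligase that acts on ligands, rose by 0.21 and 0.28 in KATO-III and SNU-601 and fell by 0.66 in SNU-216, and ITCH, which ubiquitinates the receptor, rose by 0.43 in SNU-216.

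In the nuclear activation complex, of 8 tested genes 1 was lower in CD133+ cells of KATO-III (20.6% of all tested genes), 3 were higher and 1 lower in SNU-216 (14.6% and 14.0%), and 2 higher and 2 lower in SNU-601 (8.59% and 7.78%). MAML2 rose by 0.77 in SNU-216 and 0.54 in SNU-601. The acetyltransferase KAT2A fell by 0.82 (log2, adjusted p = 6.3e-06) in KATO-III and by 0.33 in SNU-216 and rose by 0.36 in SNU-601. CREBBP, another acetyltransferase, rose by 0.38 in SNU-216 and fell by 0.46 in SNU-601, and KAT2B rose by 0.75 in SNU-216. RBPJ was called in no line.

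Of 13 tested corepressors, 7 were higher and 4 lower in CD133+ cells of KATO-III, against 18.7% and 20.6% of all tested genes. The histone deacetylase HDAC2 was at 5118 and 4775 in CD133+ and 2456 and 2467 in CD133- cells of KATO-III, where it rose by 1.01 (log2, adjusted p = 0.000108). The Groucho-type corepressor TLE1 fell by 0.75 in that line. Its relative TLE3 was called higher (adjusted p = 0.00586), at 75.7 and 78.1 against 21.1 and 46.8, and since 1 CD133- array is below the floor the size rests on it. In SNU-216, 3 were higher and 5 lower (14.6% and 14.0%), and TLE2 fell by 1.85 (adjusted p = 7.0e-05), from 133 and 106 in CD133- to 33.0 and 32.7 in CD133+ cells, just above the floor. In SNU-601, 2 were higher and 3 lower (8.59% and 7.78%): TLE2 rose by 0.89 (adjusted p = 0.0065), and NCOR1 fell by 0.60. CIR1, a corepressor that binds RBPJ, rose by 0.43 in KATO-III and by 0.88 in SNU-216 and fell by 0.43 in SNU-601. AES rose by 0.44 in KATO-III and fell by 0.76 in SNU-216.

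Of the other HES and HEY genes, 3 of 7 were tested. HES5, another direct target, was at 395 and 372 in CD133+ and 676 and 672 in CD133- cells of KATO-III, where it fell by 0.81 (log2, adjusted p = 0.00311). It was below the floor in CD133+ cells of SNU-216, at 7.09 and 23.3 against 55.1 and 72.6 in CD133- cells, and was called lower there (adjusted p = 0.00198). In SNU-601, at 79.1 and 66.1 against 40.7 and 44.3, it rose by 0.77 (adjusted p = 0.0113). HES5 thus had the direction of HES1 and HES4 in SNU-216 and SNU-601. HES6, which opposes HES1, fell by 0.27 in KATO-III and rose by 0.43 in SNU-601. HES3, HES7, HEY2 and HEYL were above the floor on no array, nor was ATOH1, which HES1 represses in the intestine. Among the remaining receptors and ligands, NOTCH4 rose by 0.43 in KATO-III, and the inhibitory ligands DLL3 and DLK2 fell by 0.80 and 0.65 in SNU-216.

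**Figure D4:**
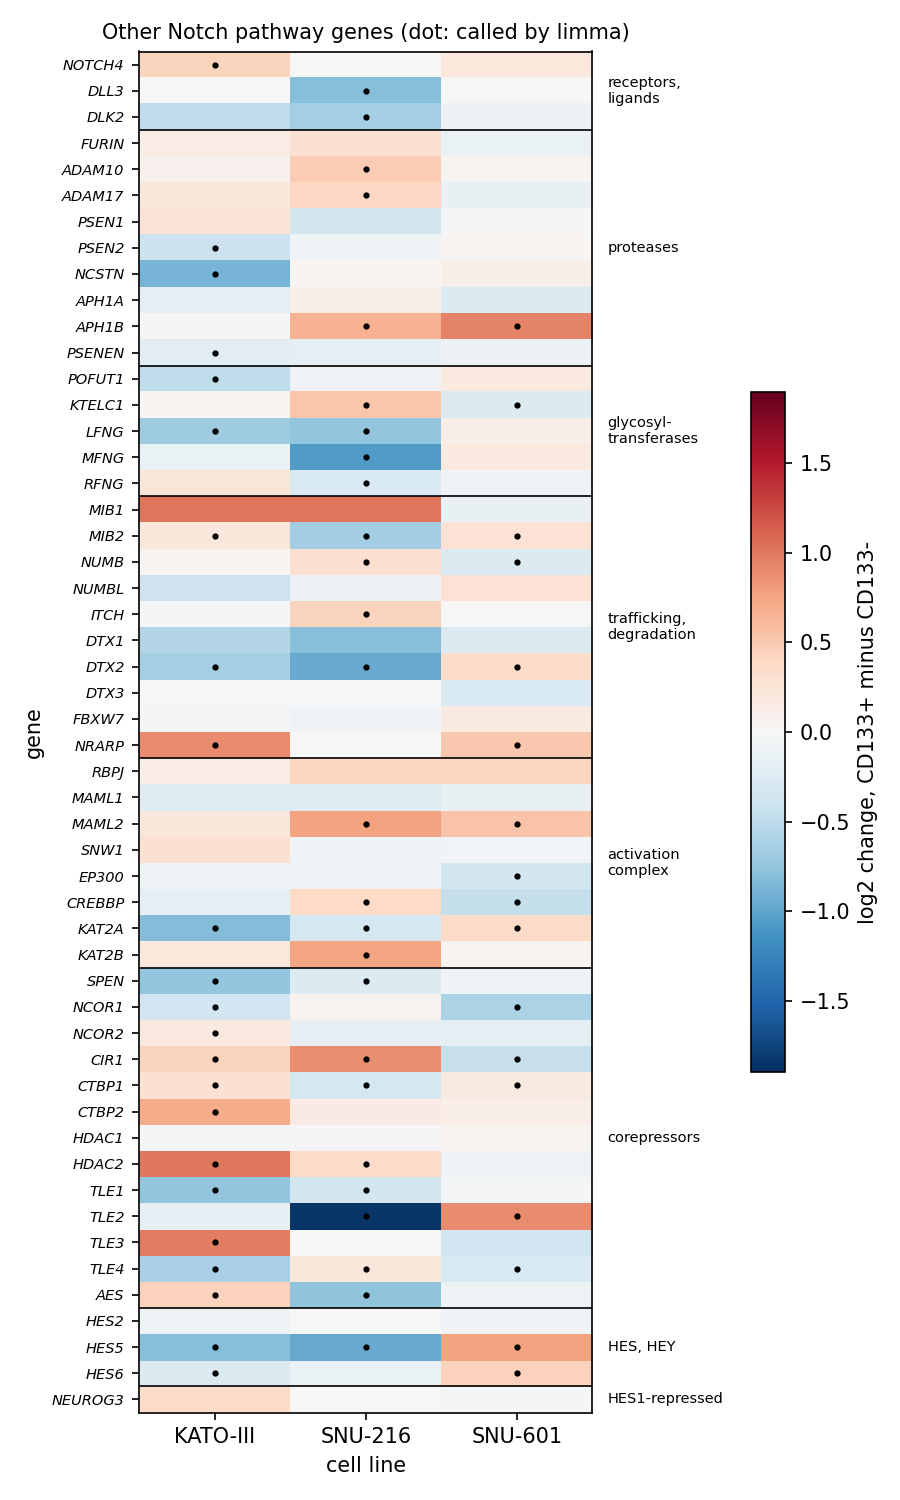
Log2 change between CD133+ and CD133- cells (colour, red for higher and blue for lower in CD133+) of the 52 tested genes of the wider Notch pathway (y axis, by role) in the 3 lines (x axis). A dot marks a gene called by limma. HES5 and DTX2 are lower in CD133+ cells of KATO-III and SNU-216 and higher in those of SNU-601.

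Genes whose pattern over the 6 population means of log2 intensity was most like that of a member were sought among 11673 other genes above the floor on every array, for the 5 members also above it on every array. For NOTCH1 these were ETS2 and SLC25A25, both with a Pearson r of 0.991. For NOTCH3 they were ZNF544 and LOC729970, both at 0.995. For JAG1 they were UBE2J1 (0.998) and ACER2 (0.996), and for JAG2 RALY (0.998) and PAQR4 (0.997). NOXO1 (0.995) was among the closest to HES1. With 6 points and large differences between lines, such values are common: r was over 0.95 for 41 genes with NOTCH1 and for 288 with HES1.

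Markers of other cell types were read on the same arrays. All 5 epithelial markers (EPCAM, CDH1, KRT8, KRT18, KRT19) were above the floor on every array, with summed intensities between 46394 and 57671. CDH1, the epithelial cadherin, fell by 0.70 in CD133+ cells of KATO-III, rose by 0.30 in those of SNU-216 and fell by 0.25 in those of SNU-601 (log2, adjusted p = 6.8e-05, 0.0109 and 0.0362), the directions of JAG1, and KRT18 fell by 0.39 (adjusted p = 0.0176) in SNU-216. None of 5 endothelial markers (PECAM1, CDH5, VWF, KDR, TEK) was above it on any array. Of 7 fibroblast and mural markers, PDGFRB, COL3A1 and DCN were above the floor on no array and 3 were tested. Their summed intensity was 559 to 594 in CD133+ and 1271 to 1272 in CD133- cells of KATO-III, 679.7 to 696 against 62.5 to 69.6 in SNU-216, and 436 to 457 against 325 to 409 in SNU-601. ACTA2, a smooth muscle actin, was called higher in CD133+ cells of SNU-216, at 598 and 580.0 against 38.3 and 25.2, a size that rests on the floor since 1 CD133- array is below it. LUM, a matrix proteoglycan, fell by 3.31 (log2) in CD133+ cells of KATO-III and was called higher in those of SNU-216 (adjusted p = 0.00323), where its CD133- arrays are below the floor. COL1A1, a collagen chain, was called higher in CD133+ cells of KATO-III (adjusted p = 0.00977), at 51.4 and 67.1 against 20.6 and 27.2, both below the floor. Of 5 leukocyte markers, PTPRC and CD3E were above the floor on no array and the summed intensity was lower in CD133+ cells of each line, at 884 to 921 against 1299 to 1343 in KATO-III, 206 to 218 against 424 to 469 in SNU-216 and 1148 to 1279 against 1612 to 1679 in SNU-601. CD68, a lysosomal protein of macrophages, fell by 1.36, 1.13 and 0.46 in CD133+ cells of the 3 lines. These markers moved with the fraction as some members did, and their part in the results was not tested.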

How the data were processed

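The authors deposited quantile-normalized intensities of 12 HT-12 v3 arrays on a linear scale, 1 row per gene symbol, made with BeadStudio per the submitters' processing notes (version not given in the sources used here). Of 34688 rows 93 were empty. Background had been subtracted, since 32.1% of values were at or below 0. The background method and the way probes of a gene were combined are not given in the sources used here. The series' design text names SNU201 in place of SNU-216, and the array labels were followed.

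Values were raised to a floor of 32.7 where lower, and log2 was taken; the floor mirrors the 1st percentile of the table, -32.7. Tests used limma 3.58.1 in R 4.3.3 with a mean-variance trend: over the lines with line as a block (8 residual degrees of freedom), and with 6 population means (6 residual degrees of freedom) for changes within lines, the interaction, lines and 15 pairs of populations. Adjustment was by Benjamini-Hochberg over all tested genes, and over all genes and pairs for the pairs. Alternatives changed the floor, the scaling, the filter, the trend and the treatment of the 2 arrays, and left out each array. Scripts were tested on simulated data.

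All 10 members are named, and of the pathway list the called genes with the largest changes, up to 3 per role and comparison. A pathway gene can therefore also be called in a line for which no change of it is given. Members without a call, RBPJ, marker genes and genes at background are named as well. The members and lists were chosen with earlier results of these data known. Of the listed genes 3 have a second row under an older symbol, which was not used. Some genes that the naming rule covers are not reported here. Gene positions and promoters are from RefSeq (GRCh38.p14), matched by symbol, with a promoter for 8 of 10 members. Figures were drawn in Python 3.11.15 with pandas 2.3.3 and matplotlib 3.10.9.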

Additional observations from a re-analysis of the deposited data

Results flagged for a closer look

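For 7 members the change between the fractions differed among the 3 lines by limma's test of the interaction of line and fraction. The adjusted p was 7.3e-06 for JAG1, 2.4e-05 for HES1, 8.0e-05 for NOTCH1, 0.000224 for JAG2, 0.000876 for DLL1, 0.00117 for HES4 and 0.0208 for NOTCH3. That of DLL1 rests on the floor, to which all arrays other than those of KATO-III CD133- cells were set. That of NOTCH3 rose to between 0.0615 and 0.0662 without 3 of the 4 KATO-III arrays and to 0.0676 without the filter on dim genes. The share of all tested genes past the same threshold was 44.4%.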

How the results depend on the processing

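All 11 alternatives with every array and 12 fits with 1 array left out were run. Calls within lines for NOTCH1 (KATO-III, SNU-216), JAG1 (all lines), JAG2 (SNU-216), HES1 (SNU-216, SNU-601) and HES4 (SNU-216) held in each fit that tested them. The call of DLL1 (KATO-III) held too, but DLL1 was not tested when either of its arrays above the floor was left out. Members called in KATO-III were 2 to 5 with an array left out. In SNU-601 they were 3 with a floor of 100, an offset of 100 or genes above the floor on all arrays, and between lines 5 with the last setting, which leaves 4 members untested. Pathway genes called in SNU-601 were 9 to 17 with an array left out. Over the lines the pathway count was 0 with a floor of 16, no filter, the population as a random block or arrays averaged first, 2 with a floor of 100, 3 with the offset, 4 with genes above the floor on all arrays and 0 to 3 with an array left out. Direction turned only for changes that were not called. Over the lines these were HES4 (0.021 with arrays centred, -0.0779 to 0.0396 with an array left out), JAG1 (-0.178 to 0.0463), NOTCH2 (0.0213 with a floor of 16, -0.0744 to 0.0791) and NOTCH3 (-0.119 to 0.0338). Within lines they were NOTCH2 in SNU-216 (-0.00019 with a floor of 100, -0.0619 to 0.154) and in SNU-601 (-0.602 to 0.00406), and NOTCH3 in SNU-216 (-0.0333 to 0.125). The interaction of HEY1 was called without SNU-601 CD133- replicate 2 (adjusted p = 0.0445), and that of NOTCH3 was lost without 3 of the 4 KATO-III arrays (0.0615 to 0.0662). The causes were not tested. With the replicate number as a block (replicate block) the pathway count over the lines was 0 and no call of a member changed. Deviations of same-numbered arrays correlated between -0.0116 and 0.0276 over 15 pairs of populations, so no shift shared by them was seen. Such values cannot show whether same-numbered arrays share a sort or culture. Values near the floor, as for NOTCH2, HEY1, DLL1 and JAG2 in SNU-601, limit what could be detected.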

Other observations

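The corepressor KDM5A has a row that was above the floor on no array, while a second row under its older symbol JARID1A lay between 1123 and 2161 on the 12 arrays. For KAT2B the current symbol was the measured one, and the row of its older symbol PCAF was above the floor on no array. Which probes these rows hold is not given in the sources used here.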
